A study of Homo sapiens with 6 samples.

Results

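The genes described here are 59 genes of interferon signalling, cytosolic nucleic acid sensing and the interferon-induced antiviral response. They were chosen by gene symbol from a list of pathway members. The rule uses no measured value, although the list was drawn up with earlier results of these data known. All 59 were found among the 60504 genes of the count table. RNA was measured by sequencing in SK-MEL-28, an established human melanoma cell line that is studied as a model of BRAF-mutant melanoma. The libraries labelled EV came from control cells given an empty vector plasmid (n = 3), and the libraries labelled HDAC8 came from cells given a plasmid that drives expression of HDAC8, a class I histone deacetylase (n = 3). In the study's methods the plasmids were introduced by lipid transfection and the cells were kept under hygromycin, so both groups carry a vector and its selection, and no interferon, virus or other stimulus is named for either group. Whether each line was a clone or a pool is not stated in the sources used here. The comparison asked which transcripts differ after HDAC8 is introduced.

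As background, interferons are secreted proteins that bind paired receptors at the cell surface. The receptors act through JAK kinases, which phosphorylate STAT proteins. STAT2 joins a STAT partner and IRF9 in a complex that binds the interferon-stimulated response element (ISRE), while STAT dimers bind a gamma-activated site (GAS). In the cytoplasm, DDX58 (RIG-I) and IFIH1 (MDA5) detect viral RNA and act through the adaptor MAVS, which leads to interferon production. In melanoma cells this pathway is known for its control of antigen presentation and of sensitivity to immune attack.

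Library totals ran from 20850018 to 29822917 estimated counts, so that 3 counts corresponded to between 0.101 and 0.144 CPM, the count scaled to a common library size after normalization. A gene under about that level was not distinguishable from absence at this depth, and this limit covers counting error only. The level of HDAC8 itself did not separate the labels. HDAC8 was at 16.6, 15.2 and 11.8 CPM in the libraries labelled EV and at 14.2, 15.2 and 13.5 CPM in those labelled HDAC8, and these ranges overlapped (log2 fold change −0.02, SE 0.13, 95% interval −0.31 to 0.26, adjusted p = 0.924 in edgeR's quasi-likelihood test). Groups are therefore called by their labels, and every direction below is that of the libraries labelled HDAC8 over the libraries labelled EV. The melanocyte lineage markers MITF, SOX10, PMEL, MLANA, TYR and DCT were present in all 6 libraries, whereas PTPRC and CD3E, defining markers of leukocytes and T cells, had at most 1 and 0 counts. The labels do not say whether the replicates were separate cultures, so the p-values measure the spread between these libraries, which may be technical.

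Most of the interferon and RNA-sensing genes were expressed in both groups, and few differed by much. Of the 59 genes, 52 passed the filter on low counts and were tested. IFI44 was called higher, and JAK2 and ISG20 were called lower, at an adjusted p below 0.05 with a log2 fold change of at least 0.58 in either direction. These 3 calls are 5.77% of the tested members, beside 7.52% of all 16195 tested genes, of which 4.07% were called higher and 3.45% lower. The median log2 fold change of the tested members was −0.03, against 0.01 over all tested genes. The 95% interval lay wholly inside ±0.58 for 37 of the 52 members (71.2%), as it did for 57.5% of all tested genes, and it reached past that limit for the other 15 members.

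Of the tested members, 24 had a positive and 28 a negative log2 fold change, and more of those past the adjusted p were lower than higher. At an adjusted p below 0.05 alone, 4 members were higher (IFI44, OAS3, IFNGR2 and ADAR) and 13 were lower (JAK2, ISG20, PARP9, IFITM3, DTX3L, SAMD9L, GBP1, MAVS, PLSCR1, STAT3, PARP14, IFI16 and TRIM25). That is 32.7% of the tested members, against 22.7% of all tested genes, of which 11.1% were higher and 11.7% lower. Abundant genes pass such a test at smaller differences. When genes under a mean of 5 CPM were set aside, 33.3% of 48 members and 28.4% of 11178 genes passed, of which 3 members (6.25%) were higher and 13 (27.1%) were lower, beside 13.4% and 14.9% of all such genes. The 13 lower members became 8 without EV replicate 1 and 8 without HDAC8 replicate 2, and the 4 higher members became 2 without EV replicate 2. In 15 members every EV library lay above every HDAC8 library and in 9 members the reverse held, while the libraries of the other 28 overlapped. Over all tested genes the shares were 19.4% and 18.7%.

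**Figure D1:**
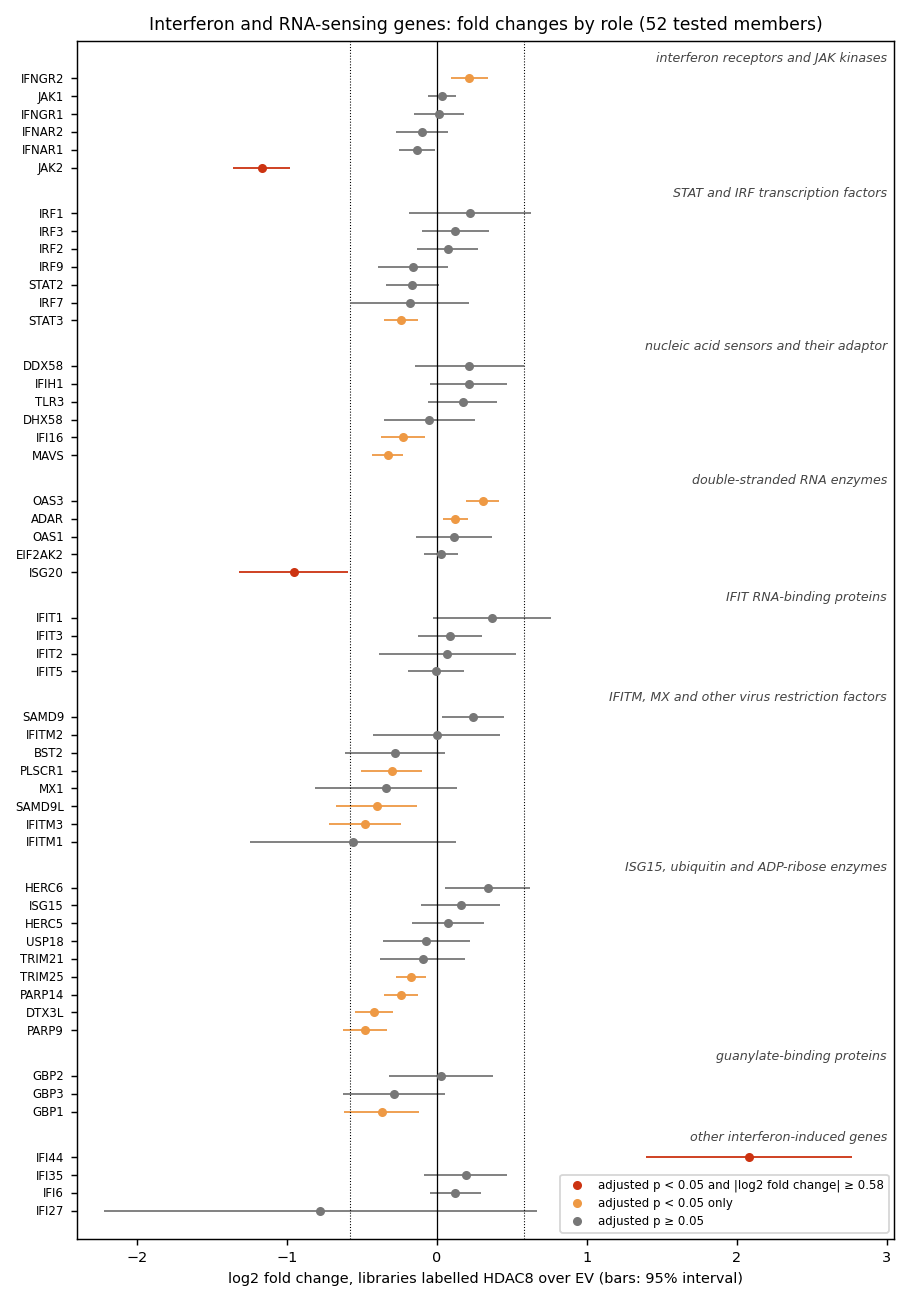
The log2 fold change of the libraries labelled HDAC8 over those labelled EV (horizontal axis) for the 52 tested members, grouped by role, with 95% intervals as bars and dotted lines at ±0.58. Red marks the 3 genes past both thresholds (IFI44 at 2.08, ISG20 at −0.95 and JAK2 at −1.17), orange the other 14 genes with an adjusted p below 0.05, and grey the rest, most of which lie close to 0.

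The upstream sequences of 5 genes are shown because some members carry an upstream element, the ISRE core. Interferon-stimulated genes were chosen by name, so a raised share of this element comes with the choice and is not an independent result. The ISRE core was searched as GAAA and GAAA separated by any 2 bases, on both strands, in the 250 bases before each transcription start in RefSeq (GRCh38.p14). The table held 46 of the 59 members (DDX58 under its current symbol RIGI), and 22 of these (47.8%) had a match, beside 3.71% of 27305 genes in the table. IFI44 and ISG20 carry the called differences with a match, JAK2 carries one without, and IFIT1 and ISG15 are classical interferon targets whose levels are given below for contrast. Capitals mark every match to the ISRE core, read along the plus strand, which is the coding strand of all 5 genes. The IFI44 run is chr1:78649539-78649788, the IFIT1 run is chr10:89392373-89392545, the ISG15 run is chr1:1013247-1013496, the ISG20 run is chr15:88638937-88638966 and the JAK2 run is chr9:4984140-4984389. The IFIT1 and ISG20 runs are shorter because annotated exons occupy part of their windows.
IFI44: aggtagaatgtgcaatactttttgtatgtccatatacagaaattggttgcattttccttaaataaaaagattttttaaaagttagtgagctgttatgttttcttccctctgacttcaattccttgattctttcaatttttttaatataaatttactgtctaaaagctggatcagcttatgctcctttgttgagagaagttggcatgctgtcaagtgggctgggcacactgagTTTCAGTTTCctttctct
IFIT1: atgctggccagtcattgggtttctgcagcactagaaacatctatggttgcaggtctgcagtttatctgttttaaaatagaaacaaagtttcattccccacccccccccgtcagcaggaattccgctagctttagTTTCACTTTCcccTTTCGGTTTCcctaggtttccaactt
ISG15: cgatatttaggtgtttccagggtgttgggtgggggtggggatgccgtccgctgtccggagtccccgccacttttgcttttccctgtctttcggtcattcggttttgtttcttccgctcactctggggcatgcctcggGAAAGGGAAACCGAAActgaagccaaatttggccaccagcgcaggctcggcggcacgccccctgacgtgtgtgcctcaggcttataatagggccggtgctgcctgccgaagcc
ISG20: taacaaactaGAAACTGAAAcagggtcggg
JAK2: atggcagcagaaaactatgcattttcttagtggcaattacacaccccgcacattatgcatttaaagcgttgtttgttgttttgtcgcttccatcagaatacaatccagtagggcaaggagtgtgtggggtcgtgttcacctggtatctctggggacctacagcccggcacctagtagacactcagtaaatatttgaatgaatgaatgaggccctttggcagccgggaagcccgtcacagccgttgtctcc

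The IFI44 match lies 9 bases before the start site, in the orientation that reads TTTC on the coding strand. IFIT1 has 2 matches separated by a few bases, and in ISG15 a pair of matches overlaps. A match describes the letters and does not show a bound site. The 20 tested members with an ISRE core had 1 gene called higher and 1 called lower (4.07% and 3.45% of all tested genes), and at an adjusted p below 0.05 alone 2 were higher and 6 lower (11.1% and 11.7% of all tested genes). Their median log2 fold change was −0.12, close to −0.10 in the 23 tested members without a match. The GAS, searched as TTCNNNGAA, was found in 11 of the 46 members (23.9%) and in 8.09% of genes, and none of these 11 members, all of them tested, was past both thresholds. At an adjusted p below 0.05 alone, 0 of the 11 were higher and 1 (PARP14) was lower, beside 11.1% and 11.7% of all tested genes. The median log2 fold change of the 11 was −0.24, with 7 values negative, beside 0.01 in the 32 tested members without a match. IFITM1, MX1, BST2, PARP14 and IFI27 held both elements.

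The interferon receptors and their kinases differed in JAK2 alone at both thresholds. JAK2, the kinase that couples the interferon gamma receptor and several cytokine receptors to STAT proteins, lies on chromosome 9 (GRCh38, 4984390 to 5129948, plus strand, ENSG00000096968). Its level was 42.6, 39.6 and 42.8 CPM in the libraries labelled EV and 20.5, 18.2 and 16.8 CPM in those labelled HDAC8. Each HDAC8 library was below every EV library. The means were 41.7 ± 1.8 CPM and 18.5 ± 1.8 CPM (SD, n = 3 each), a 2.25-fold lower level (log2 fold change −1.17, SE 0.09, 95% interval −1.36 to −0.98, edgeR adjusted p = 1.57e-06). JAK1, the kinase shared by the type I and type II interferon receptors, was at 219 CPM in EV and 225 CPM in HDAC8, a log2 difference of 0.04 with an interval of −0.06 to 0.13. IFNGR2, the signal-transducing chain of the interferon gamma receptor and the most abundant member of this role per kilobase of exon, was at 87.0, 79.6 and 82.2 CPM in EV and 93.4, 95.1 and 100.5 CPM in HDAC8. IFNGR2 was thus above the EV libraries in every HDAC8 library by a small margin (log2 fold change 0.22, SE 0.06, adjusted p = 0.0168). This call was lost without EV replicate 2 (adjusted p = 0.0754) and without EV replicate 3 (adjusted p = 0.0739). IFNGR1, the ligand-binding chain, had a log2 fold change of 0.02, and the type I receptor chains IFNAR1 and IFNAR2 had values of −0.13 and −0.10, none past the test.

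Of the 20 tested genes next to JAK2 in order of start position, 10 on each side, none was called lower. They include INSL6 and 4 tested genes that lie inside JAK2, so not all of them flank it. On the log2 scale the 20 differences had a median of 0.06, with 8 negative and 12 positive. The 4 genes inside JAK2 were all positive (0.40 to 1.97). The minimum was −0.43 (SE 0.10) in RCL1, the nearest of the 20 to start before JAK2. SLC1A1, named after its values were seen, was at −0.40 (SE 0.10), and neither reached the fold threshold. The 1 of the 20 that was called is INSL6, an insulin-like peptide gene that is not a member and was picked out after its values were seen. INSL6 (ENSG00000120210, chromosome 9, 5123880 to 5185647, minus strand) overlaps the 3′ end of JAK2 on the opposite strand, from 5123880 to 5129948. It had 0 counts in all 3 EV libraries and 92, 58 and 40 counts in the HDAC8 libraries, which is at least 19.3-fold higher against a floor of 3 counts per EV library. The strand setting of the count step is not given in the sources used here, so how reads in the overlap were assigned is not known. The estimated counts of JAK2 were whole numbers in every library. The other 12 genes annotated inside JAK2, most of them pseudogenes, summed to 57, 75 and 34 counts in EV and 141, 93 and 193 counts in HDAC8. Those sums lay higher in every HDAC8 library, opposite to JAK2, although none of the 4 that could be tested was called. TCF3P1, the tested pseudogene among them with the largest fold change, had 7, 15 and 0 counts in EV and 28, 29 and 36 in HDAC8 (log2 fold change 1.97, adjusted p = 0.0789). Whether these counts bear on the level of JAK2 was not tested.

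**Figure D2:**
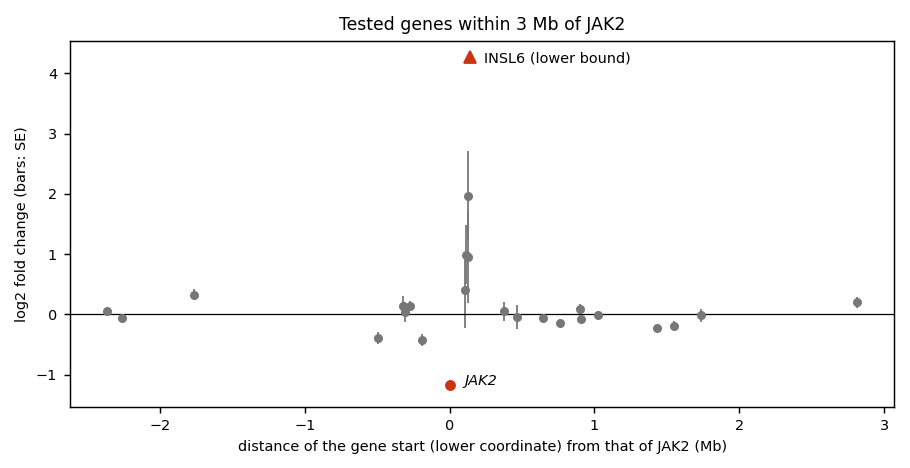
The log2 fold change (vertical axis, bars show SE) of JAK2 and the 24 other tested genes that start within 3 Mb of it, against the distance of their starts in Mb (horizontal axis). JAK2 is the lowest point at −1.17, INSL6 is drawn as a triangle at the lower bound of its log2 fold change (4.27), and the genes inside JAK2 stand above 0 with wide bars.

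The transcription factors of the pathway had small differences. STAT3, which carries cytokine and growth factor signals and is the most abundant tested member of this role per kilobase, was at 191, 170 and 185 CPM in EV and at 154, 155 and 154 CPM in HDAC8. All HDAC8 libraries were below all EV libraries, and the log2 fold change was −0.24 (SE 0.05, edgeR adjusted p = 0.00578). STAT2, a subunit of the ISRE-binding complex, was at 113 and 101 CPM (log2 fold change −0.16, adjusted p = 0.178). IRF9, the DNA-binding subunit of that complex, had a log2 fold change of −0.16 with an interval of −0.39 to 0.07. IRF3 and IRF7, which switch on interferon genes after a sensor is engaged, had values of 0.12 and −0.18. IRF1, an activator induced by interferon gamma, had 0.22, and IRF2, its repressor counterpart, had 0.07. None of these 6 passed the test, and each interval included 0.

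None of the 6 genes for sensors of foreign nucleic acid and their adaptor passed both thresholds. MAVS and IFI16 (2 of 6) were lower at an adjusted p below 0.05 alone, as were 11.7% of all tested genes. MAVS, the mitochondrial adaptor through which RIG-I and MDA5 signal, was at 318, 298 and 309 CPM in EV and at 241, 238 and 258 CPM in HDAC8. The groups did not overlap, and MAVS was 1.26-fold lower (log2 fold change −0.33, SE 0.05, edgeR adjusted p = 0.000414). IFI16, a sensor of DNA in the nucleus and cytosol and the member of this role with the highest level per kilobase, was at 245, 258 and 234 CPM in EV and 229, 213 and 189 CPM in HDAC8. Each HDAC8 library again lay under the EV libraries (log2 fold change −0.22, SE 0.07, adjusted p = 0.0323). This call was lost on leaving out EV replicate 1 (adjusted p = 0.0940), EV replicate 2 (0.125), EV replicate 3 (0.0523) or HDAC8 replicate 2 (0.0659). The RNA sensors themselves were far less abundant. IFIH1 was at 10.6 and 12.2 CPM, DDX58 at 5.82 and 6.77 CPM and TLR3, an endosomal sensor, at 12.3 and 13.9 CPM, with log2 fold changes of 0.21, 0.22 and 0.17 that did not pass the test. DHX58 (LGP2), a regulator of both RIG-I and MDA5, had a log2 fold change of −0.05.

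In the group of duplex RNA enzymes, where ISG20 was also listed, OAS3 was slightly higher and ISG20 was lower. ISG20 is an exonuclease that degrades single-stranded RNA and is encoded on chromosome 15 (88635670 to 88656483, plus strand, ENSG00000172183). It was at 9.80, 9.58 and 8.87 CPM in EV and at 4.14, 4.59 and 5.86 CPM in HDAC8. Every HDAC8 library was below every EV library, and the means of 9.41 ± 0.48 and 4.87 ± 0.89 CPM (SD, n = 3 each) differed 1.94-fold (log2 fold change −0.95, SE 0.17, 95% interval −1.32 to −0.59, edgeR adjusted p = 0.00146). The interval nearly reaches the fold threshold, and when the test asked for a difference beyond 0.58 ISG20 did not pass (glmTreat, adjusted p = 0.135). Its 20 tested neighbours, 10 on each side, had a median difference of 0.01 on the log2 scale, and ABHD2 and RLBP1, named after their values were seen, were past both thresholds in opposite directions. OAS3, which makes the second messenger that activates RNase L, was at 114, 107 and 118 CPM in EV and 139, 139 and 141 CPM in HDAC8, without overlap (log2 fold change 0.30, SE 0.05, adjusted p = 0.00103). ADAR, which edits adenosine to inosine in duplex RNA and so keeps endogenous RNA from being sensed, had the highest level of this role per kilobase. ADAR was at 388, 380 and 378 CPM in EV and at 417, 415 and 417 CPM in HDAC8. The libraries did not overlap, yet the difference was only 0.12 on the log2 scale (SE 0.04, adjusted p = 0.0413), and the call was lost without the low-count filter (adjusted p = 0.167) and on leaving out any library but HDAC8 replicate 3 (0.0918 to 0.164). EIF2AK2 (PKR), which halts translation on binding duplex RNA, had a log2 fold change of 0.03 with an interval of −0.08 to 0.14. OAS1 had 0.11 and did not pass. OAS2 and OASL were too low to test, with at most 12 and 9 counts in any library.

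The IFIT proteins, which bind viral RNA ends and block their translation, did not differ past the test. IFIT5, the most abundant of the 4 per kilobase, was at 28.4, 23.2 and 25.9 CPM in EV and 26.0, 25.6 and 25.6 CPM in HDAC8, with a log2 fold change of 0.00 and an interval of −0.19 to 0.18. IFIT1 was at 4.74, 4.65 and 5.09 CPM in EV and 6.52, 7.01 and 5.17 CPM in HDAC8. The IFIT1 libraries did not overlap, but the difference of 0.37 on the log2 scale had an interval of −0.02 to 0.76 (edgeR adjusted p = 0.176). IFIT2 and IFIT3 had log2 fold changes of 0.07 and 0.09.

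Of 8 tested virus restriction factors, 3 were lower at an adjusted p below 0.05, as were 11.7% of all tested genes, and none was past both thresholds. IFITM3, which blocks fusion of virus particles in endosomes, had the highest level of the role per kilobase. IFITM3 was at 58.9, 62.3 and 70.6 CPM in EV and at 48.8, 51.7 and 37.3 CPM in HDAC8, lower in every HDAC8 library (log2 fold change −0.48, SE 0.11, edgeR adjusted p = 0.0078). Without EV replicate 3 the adjusted p was 0.0502. The paralogs IFITM1 and IFITM2 had log2 fold changes of −0.56 and 0.00 with wide intervals (−1.25 to 0.13 and −0.42 to 0.42). Estimated counts of the 3 IFITM genes were not all whole numbers, so reads were shared out between genes and their separate values are uncertain. SAMD9 and SAMD9L, adjacent paralogs that restrict poxviruses, lay on opposite sides of 0. SAMD9L was at 12.5 and 9.47 CPM (log2 fold change −0.40, adjusted p = 0.0349), whereas SAMD9 was at 33.7 and 39.7 CPM (0.24, adjusted p = 0.0964). The difference between these paralogs was not tested. PLSCR1, a phospholipid scramblase that restricts virus entry, was at 30.6 and 24.8 CPM (−0.30, adjusted p = 0.0366). MX1 and BST2 (tetherin) had log2 fold changes of −0.34 and −0.28 that did not pass. MX2 and RSAD2 (viperin), both among the most strongly induced genes of an interferon response, had at most 6 counts in any library and were not tested.

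In the group of ISG15 and its enzymes, 4 of 9 tested genes were lower at an adjusted p below 0.05, beside 11.7% of all tested genes and 14.9% of those at 5 CPM or more. These included the PARP9, DTX3L and PARP14 cluster of chromosome 3. DTX3L is an E3 ubiquitin ligase that works as a partner of PARP9, and the genes start head to head, with 240 bases of overlap between PARP9 on the minus strand (122527924 to 122564577) and DTX3L on the plus strand (122564338 to 122575203). DTX3L, with the highest level of this role per kilobase, was at 146, 132 and 141 CPM in EV and 110, 101 and 102 CPM in HDAC8 (log2 fold change −0.42, SE 0.06, edgeR adjusted p = 0.000257). PARP9 was at 60.8, 57.1 and 55.6 CPM in EV and 43.1, 42.5 and 38.7 CPM in HDAC8 (−0.48, SE 0.07, adjusted p = 0.000303). PARP14, a mono-ADP-ribosyltransferase encoded nearby (122680839 to 122730840, plus strand), was at 114, 116 and 117 CPM in EV and 102, 95.2 and 95.7 CPM in HDAC8 (−0.24, SE 0.05, adjusted p = 0.00543). In all 3 genes each HDAC8 library was below each EV library. The counts of PARP9 and DTX3L were not whole in some libraries, so some of their reads were divided by estimate. Whether those reads lay in the shared bases was not tested. TRIM25, the ligase that modifies RIG-I, was at 173 and 154 CPM (−0.17, adjusted p = 0.0159). ISG15, the ubiquitin-like modifier and a standard reporter of interferon response, was at 11.0, 11.3 and 13.7 CPM in EV and 14.0, 12.2 and 14.1 CPM in HDAC8. The ISG15 libraries overlapped (log2 fold change 0.16, interval −0.11 to 0.42, adjusted p = 0.399). USP18, which removes ISG15 from proteins, had −0.07, HERC5, its ligase, had 0.07, HERC6 had 0.34 (adjusted p = 0.0856) and TRIM21, an intracellular antibody receptor, had −0.10. TRIM22 was not tested, with 5, 2 and 3 counts in EV and 32, 7 and 5 in HDAC8.

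The guanylate-binding proteins, GTPases that attack vacuoles of intracellular pathogens, gave 1 gene of 3 that was lower at an adjusted p below 0.05 alone. Over all tested genes that share was 11.7%. GBP1, the most abundant per kilobase, was at 14.6, 16.6 and 13.1 CPM in EV and 11.6, 11.6 and 11.1 CPM in HDAC8. All HDAC8 libraries were below the EV libraries (log2 fold change −0.37, SE 0.11, edgeR adjusted p = 0.038), and the call was lost on leaving out any library but EV replicate 3 (adjusted p of 0.0646 to 0.144). GBP2 and GBP3 had log2 fold changes of 0.03 and −0.29 that did not pass.

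IFI44 had the largest difference of all tested members. IFI44, an interferon-induced protein of the cytoplasm, lies on chromosome 1 (78649796 to 78664078, plus strand, ENSG00000137965). It had 14, 13 and 19 counts in EV and 88, 59 and 62 counts in HDAC8, or 0.650, 0.587 and 0.773 CPM against 2.99, 2.91 and 2.67 CPM. Each HDAC8 library was well above every EV library, and the means of 0.670 ± 0.095 and 2.86 ± 0.16 CPM (SD, n = 3 each) differed 4.23-fold (log2 fold change 2.08, SE 0.31, 95% interval 1.39 to 2.77, edgeR adjusted p = 0.000527). Even in HDAC8 its level per kilobase was under that of most members. IFI44L, its adjacent paralog and usually induced with it, had 0 counts in every EV library and 2, 4 and 5 counts in HDAC8, too few to test. The 20 tested neighbours of IFI44, again 10 on each side, had a median log2 fold change of 0.12, and 1 of them, ADGRL2, named after its values were seen, was called higher. IFI6, a mitochondrial protein and the member with the highest level per kilobase, was at 51.7, 45.7 and 48.8 CPM in EV and 49.7, 58.6 and 51.2 CPM in HDAC8. The IFI6 libraries overlapped, with a log2 fold change of 0.12 and an interval of −0.05 to 0.29. IFI35 had 0.19 and did not pass. IFI27, often the most induced gene in interferon-exposed tissue, had 11, 21 and 15 counts in EV and 21, 1 and 9 in HDAC8, with an interval from −2.22 to 0.67. XAF1 had at most 9 counts and was not tested.

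**Figure D3:**
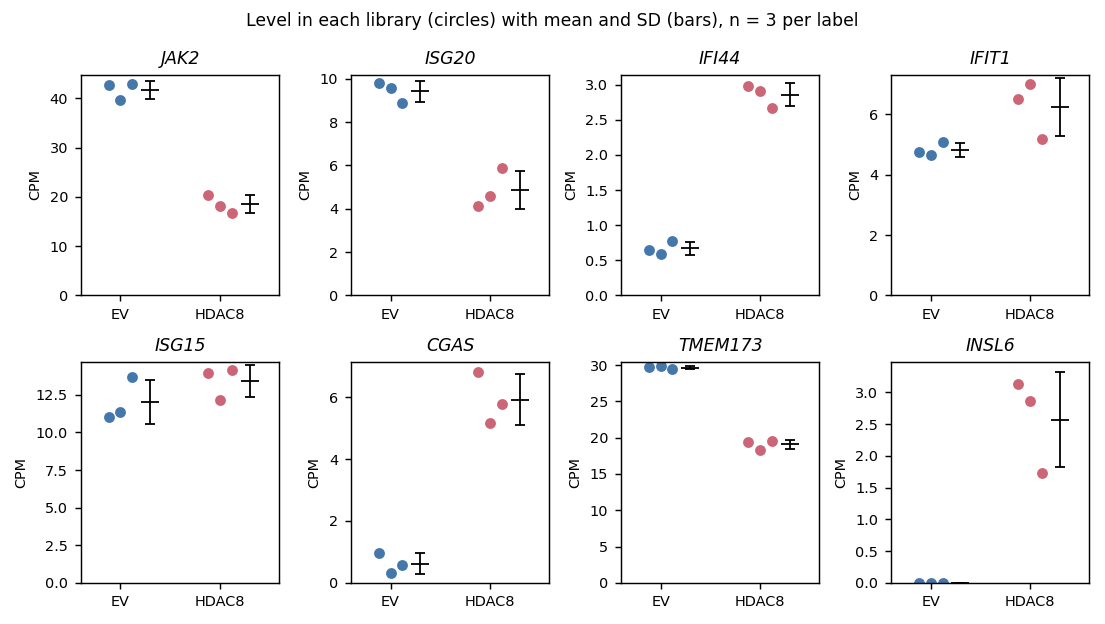
The level in CPM (vertical axes, each starting at 0) of 5 members and 3 other genes in each library labelled EV (blue) or HDAC8 (red), with the mean and SD as black bars (n = 3 per label). JAK2, ISG20 and TMEM173 sit lower and IFI44, CGAS and INSL6 higher in every HDAC8 library, and ISG15 overlaps between labels.

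The levels of the members spanned a wide range. Per kilobase of annotated exon, 15 members were at 10 CPM or more, 30 were between 1 and 10 and 14 were under 1. The length used joins all annotated exons of a gene, for example 936 bases in IFI6 and 17984 in MX1. The order between genes therefore depends on the annotation. In plain CPM the EV means of ADAR (382) and MAVS (308) were above that of IFI6 (48.7). IFI6 (54.4 CPM per kilobase over all libraries), IFI16 (43.1), IFNGR2 (35.3), ADAR (32.6) and MAVS (23.5) were the highest. IFI6 was at 52.1 ± 3.2 CPM per kilobase in EV and 56.8 ± 5.1 in HDAC8, and IFI16 was at 46.4 ± 2.2 and 39.7 ± 3.8, so that these neighbours were closer in EV than in HDAC8. The lower end held the 7 untested members together with genes that rise strongly under interferon, such as IFI27 and MX1. Summed over all 59 members, the level per kilobase was 471, 455 and 467 CPM in EV and 452, 447 and 433 CPM in HDAC8. The HDAC8 sums were lower in each library, although by little, and abundant genes dominate such a sum.

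**Figure D4:**
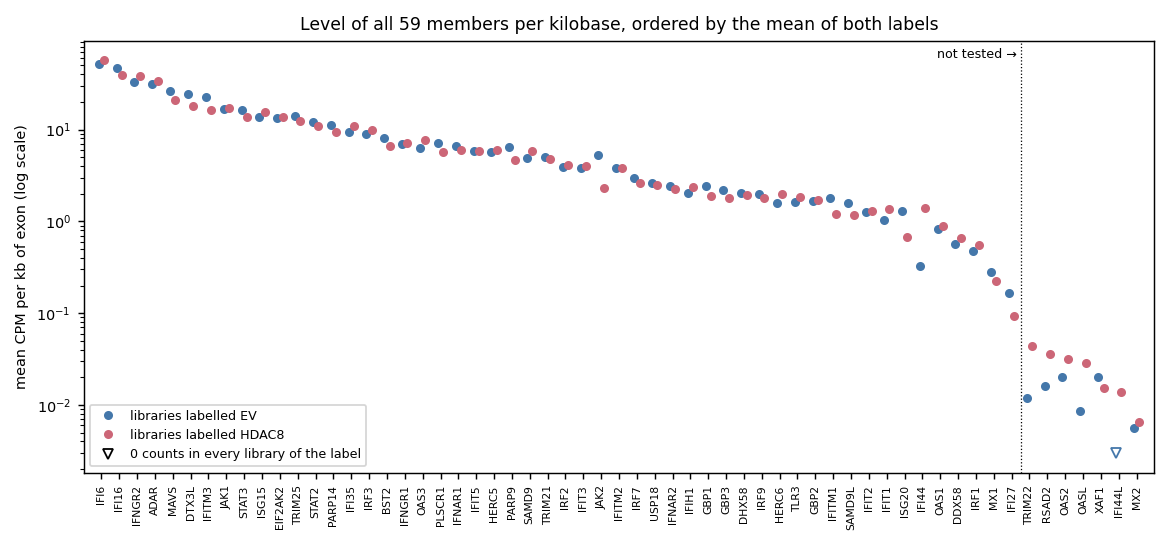
Mean level per kilobase of annotated exon (vertical axis, log scale) of all 59 members in the libraries labelled EV (blue) and HDAC8 (red), ordered from IFI6 at 54.4 CPM per kilobase over all libraries down to MX2. Most pairs of points nearly coincide, JAK2, ISG20 and IFI44 are separated, and the 7 untested members stand right of the dotted line.

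Libraries of the same label were not uniform in the direction of the members. On the scale log2(CPM + 0.5) minus the mean of the EV libraries, the median over the 52 tested members was 0.03, −0.03 and −0.01 in the EV libraries and 0.03, −0.10 and −0.08 in the HDAC8 libraries. HDAC8 replicate 1 therefore stood above 0 (30 members above, 22 below), while replicates 2 and 3 stood below it (21 above and 31 below in each). Of the HDAC8 libraries, only replicate 1 had IFIT2 and IFITM2 above the EV mean. HDAC8 replicate 3 had the lowest values of IFITM3, IFITM1, SAMD9L, PLSCR1 and IFI16.

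**Figure D5:**
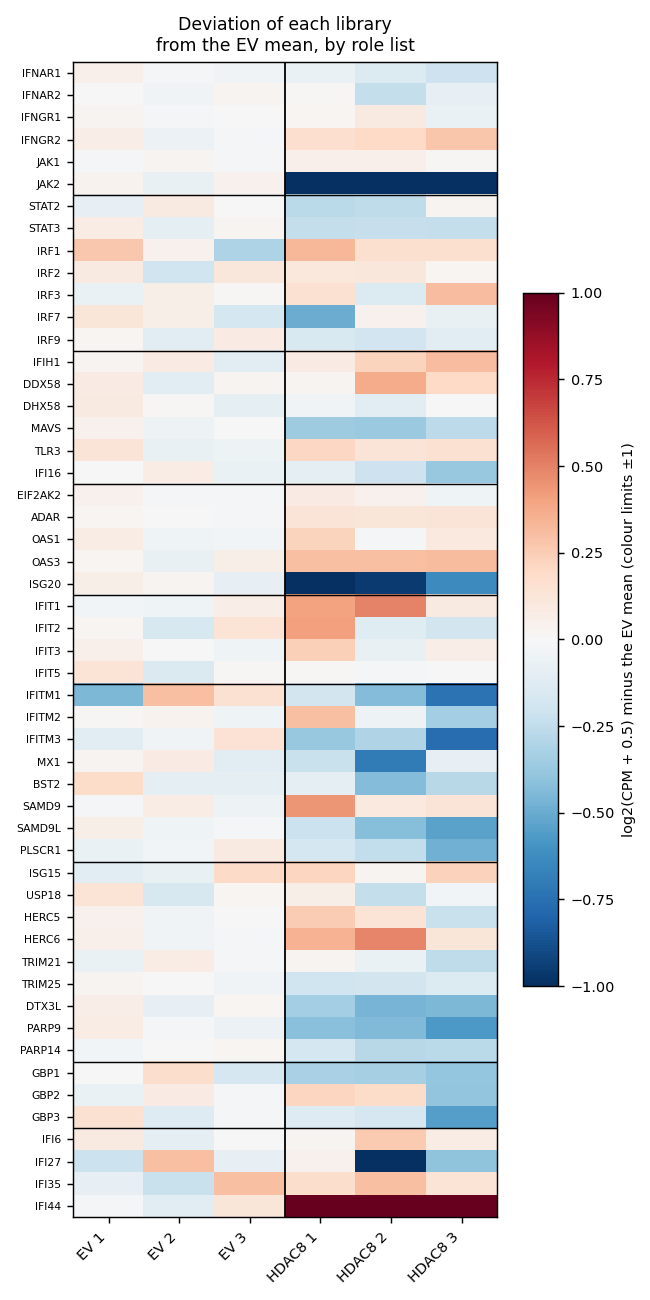
Deviation of each library (columns) from the EV mean on the scale log2(CPM + 0.5), for the 52 tested members (rows) in their role groups, with colours limited at ±1. JAK2 and ISG20 are blue and IFI44 is red in all 3 HDAC8 libraries, while most other rows stay pale or differ between HDAC8 libraries.

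The interferon genes themselves were almost silent. Of 22 ligand genes, 11 had 0 counts in every library, IFNB1 and IFNG among them, and a further 7 stayed under 10 counts. IFNA7, IFNA14 and IFNA16 were the only ligands that could be tested. They had 7 to 55 counts per library and log2 fold changes of −0.41 to −0.01, none past the test, and they belong to a family of near-identical copies between which reads may have been misassigned.

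Outside the ligands, the other genes of the pathway included a sensor with a larger fold change than any tested member, although the difference between them was not tested. The list of 85 further pathway genes, ligands included, had 56 tested, of which 1 was called higher and 3 lower (7.14%, beside 7.52% of all tested genes). At an adjusted p below 0.05 alone, 5 were higher and 7 lower (21.4%, beside 22.7% of all tested genes). CGAS, the sensor that makes cyclic GMP-AMP on binding cytosolic DNA, had 21, 7 and 14 counts in EV and 201, 105 and 134 in HDAC8. Its level rose from 0.620 ± 0.332 to 5.93 ± 0.83 CPM (SD, n = 3 each), a 9.54-fold difference without overlap (log2 fold change 3.25, SE 0.34, edgeR adjusted p = 3.33e-05). STING (listed as TMEM173), the receptor for that messenger, differed the other way, at 29.7, 29.9 and 29.4 CPM in EV and 19.4, 18.3 and 19.6 CPM in HDAC8 (log2 fold change −0.64, SE 0.07, adjusted p = 7.95e-05). TREX1, the exonuclease that clears cytosolic DNA, was at 8.68, 7.77 and 7.77 CPM in EV and 5.40, 6.37 and 4.40 CPM in HDAC8 (−0.59, SE 0.17, adjusted p = 0.0285). The call of TREX1 was lost on leaving out any library but HDAC8 replicate 2 (adjusted p of 0.0524 to 0.114). PTPN1 (PTP1B), a phosphatase that acts on JAK kinases, was at 319, 295 and 305 CPM in EV and at 178, 178 and 189 CPM in HDAC8, 1.69-fold lower without overlap (−0.75, SE 0.05, adjusted p = 4.57e-07). Of the 33 tested genes on the list of further interferon-induced genes, none was past both thresholds. At an adjusted p below 0.05 alone 3 were higher and 3 lower (18.2%, beside 22.7% of all tested genes). The median log2 fold change of the 33 was 0.03.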

How the data were processed

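RNA was sequenced from 6 SK-MEL-28 libraries, 3 per label. The deposited table holds estimated counts per gene, which the authors made with Trimmomatic, STAR and RSEM on GRCh38. The strand setting is not given in the sources used here. The labels and the methods name different RNA and library kits. A second deposited table holds the authors' own DESeq2 comparison and was not used.

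Estimated counts were rounded to whole numbers (12 members had non-whole values), filtered with filterByExpr, scaled by TMM and tested with edgeR 4.0.16 (glmQLFit, glmQLFTest, R 4.3.3), with Benjamini-Hochberg adjustment over 16195 genes. Calls combined an adjusted p below 0.05 with a minimum size of 0.58 for the log2 difference. SE is the absolute log2 fold change over the root of F, and intervals are 95%. On simulated data, edgeR recovered 200 of 200 changed genes with 8 false calls among 15890. These totals were not divided by level or by size of difference. Recovery of genes at low levels or with small differences was not tested separately. Positions and exon lengths came from GENCODE on GRCh38 and upstream sequences from RefSeq, which had no entry for 13 members. Named genes were the members past both thresholds, the most abundant member of each role per kilobase and the further pathway genes past both thresholds. The members, role lists and further lists were chosen with earlier results of these data known. Alternatives were DESeq2 1.42.0, upper-quartile scaling, other filters, glmTreat, a replicate block, a stricter fold and leaving out each library.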

Additional observations from a re-analysis of the deposited data

How the results depend on the processing

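JAK2, ISG20 and IFI44 were the members past both thresholds under every alternative run, except that the test against a log2 fold change of 0.58 (glmTreat) left JAK2 and IFI44, and a limit of 1 in place of 0.58 left IFI44 and JAK2. Members called lower were 1 under each of these settings. Over all genes the 1218 calls became 553 with glmTreat and 700 at a limit of 1. At an adjusted p alone, leaving out 1 library gave 2 to 5 members higher (2 without EV replicate 2) and 8 to 12 lower (8 without EV replicate 1 and without HDAC8 replicate 2). The further pathway genes called higher numbered 2 with DESeq2, 2 with no filter, 2 with the replicate block, 0 at 10 counts in every library (CGAS had 7 in 1 library and was not tested) and 1 to 2 when 1 library was left out (2 without HDAC8 replicate 3). Those called lower numbered 1 with glmTreat. The cause was not tested. Same-numbered libraries did not deviate together (correlations of −0.0897, −0.147 and −0.0183), so no pairing by number was visible. So few libraries cannot exclude one. The fit with the replicate block called 1098 genes. Under that block ADAR (adjusted p = 0.112) and GBP1 (0.0548) no longer passed the adjusted p alone. Over all tested genes the median log2 difference stayed between −0.004 and 0.017. Depth limits the 7 untested members and genes near 3 counts.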
